A study of Mus musculus with 15 samples.

Results

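The cytochrome P450 genes were examined in the hippocampus of mice that lack the glucocorticoid receptor (GR), the mineralocorticoid receptor (MR) or both in the forebrain. Members were the array genes whose symbol has the form Cyp, a number and, where present, a letter and a second number, with the Cyp26 genes left out. Of 82 Cyp symbols on the array, 75 had that form, and 49 of these had a probe that was well above background on at least 3 of the 15 arrays. These 49 genes stood among 22872 genes tested. Total RNA of the whole hippocampus from both hemispheres was labelled with Cy3 and hybridised to Agilent 1-colour arrays. All animals were male C57BL/6 mice of about 2.5 months. The 4 groups were dflox controls (4 arrays), GREmx1-cre (4 arrays), MREmx1-cre (4 arrays) and GRMREmx1-cre knockouts (3 arrays). Read from the names, dflox mice hold loxP-flanked Nr3c1 and Nr3c2 and no Cre, and the knockouts lose GR, MR or both where Emx1-cre is active. Emx1-cre acts in excitatory neurons and in part of the glia of the forebrain, so receptors in other cells of the tissue, such as microglia and vessels, are not targeted. The labels do not give the floxed alleles that each single knockout carries, nor do they say that each array is a different animal, so the p-values measure the spread between these arrays. Each genotype lay alone on its own slide of the 4 slides, so what a slide contributes cannot be told apart from genotype.

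Cytochrome P450 enzymes are heme proteins that insert an oxygen atom into lipids, steroids, vitamins and drugs, with electrons supplied by P450 reductase or by ferredoxins. In the brain they turn over cholesterol, make and break down neurosteroids, and form or inactivate the epoxide and hydroxy derivatives of arachidonic acid that act on vessels and inflammation. GR and MR are steroid-activated transcription factors, and several P450 genes of the liver respond to glucocorticoids directly or through the receptors PXR, CAR and PPAR-alpha.

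Levels below are log2 signals relative to each array's 75th percentile, values are listed in the order of the replicate numbers, by which arrays are also named, and changes are differences of log2 group means with limma's SE. A gene was called when its p-value, adjusted over all 22872 genes by the Benjamini-Hochberg method, was below 0.05. The 75th percentile lay between 821 and 1027 intensity units over the 15 arrays, and 28092 to 30215 probes an array were well above background. Nr3c1, which encodes GR, changed by -2.24 and -1.64 in GREmx1-cre and GRMREmx1-cre against dflox (limma's adjusted p = 1.36e-08 and 7.43e-07). On the MREmx1-cre arrays Nr3c1 stood at 2.08 to 2.28, above the dflox arrays at 1.49 to 1.79. Nr3c2, which encodes MR, differed from dflox by -0.11 in MREmx1-cre (adjusted p = 0.480) and -0.31 in GRMREmx1-cre (adjusted p = 0.0394), and the second of these changes did not pass on leaving out any of 6 arrays or with local background subtracted, and turned to 0.97 with normexp background correction (adjusted p = 0.0288). On the GREmx1-cre arrays Nr3c2 stood at -3.15 to -3.04, above the dflox arrays at -3.65 to -3.36. The files do not place the Nr3c1 and Nr3c2 probes relative to the deleted exons, so the Nr3c2 values check nothing about MREmx1-cre. Of the 10 tested marker genes of hippocampal pyramidal and granule neurons, 9 were well above background on all 15 arrays, which fits the labelled tissue. Their mean level lay between 0.090 and 0.47 on the dflox arrays, and lower in MREmx1-cre (-0.39 to -0.22) and GRMREmx1-cre (-0.60 to -0.56). In bulk tissue fewer cells of a type and less RNA per cell cannot be told apart.

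Of the 49 P450 genes, 35 were well above background on all 15 arrays, Cyp2j6 was so on all 14 arrays on which it had a value, and 13 genes were so on 4 to 14 arrays. Outside the threshold lay 26 genes. Cyp2j5 was above background on 2 arrays, 9 genes on 1 array and 16 on none. The 16 include enzymes that define liver or adrenal tissue, such as Cyp7a1 and Cyp8b1 of bile acid synthesis, Cyp2e1 of ethanol oxidation and Cyp11b2, the aldosterone synthase. Cyp24a1, which breaks down active vitamin D, and Cyp1a1 and Cyp1a2, which the aryl hydrocarbon receptor induces, were above background on 1 array each.

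The first comparisons asked which P450 transcripts differ from dflox after loss of GR, of MR or of both. After loss of GR 3 of the 49 genes rose and 2 fell, where 3.15% of all tested genes were called, 2.26% higher and 0.888% lower. In MREmx1-cre there were 2 rises and 2 decreases, and here 6.8% of all genes were called, 4.21% higher and 2.6% lower. In GRMREmx1-cre 14 rose and 7 fell, against 16.3% of all genes, 11.4% higher and 4.84% lower. These 21 calls are 42.9% of the members. The median change of the 49 genes was 0.13 in GREmx1-cre, 0.094 in MREmx1-cre and 0.19 in GRMREmx1-cre, where the medians over all genes were 0.021, 0.036 and 0.033. All 3 comparisons use the same 4 dflox arrays. The split by direction moved with the scaling. With quantile normalization the members split 1 higher and 2 lower in GREmx1-cre, 1 and 2 in MREmx1-cre and 10 and 8 in GRMREmx1-cre, and median scaling gave 1 and 2, 1 and 2, and 11 and 8. Over all genes, median scaling turned the split of GRMREmx1-cre against dflox from 2613 higher and 1106 lower to 1542 higher and 1712 lower, and that of GREmx1-cre from 518 and 203 to 247 and 193. Normexp background correction raised the median of all genes by 0.39 to 0.40 in the comparisons of GRMREmx1-cre and called 37 members against dflox, 34 of them higher, and 0 in the single knockouts against dflox or between them. Its fitted background means were -804 to -30.2 on the GRMREmx1-cre arrays and 1.06 to 3.21 on the others. The median spot signal less local background was 112 to 117 on the GRMREmx1-cre arrays and 100 to 121.5 on the others. Its values for GRMREmx1-cre, here and for Nr3c2 above, are therefore printed only as an alternative and not read as a contrary result. Where normexp turned a change printed below, its value stands beside that change.

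**Figure D1:**
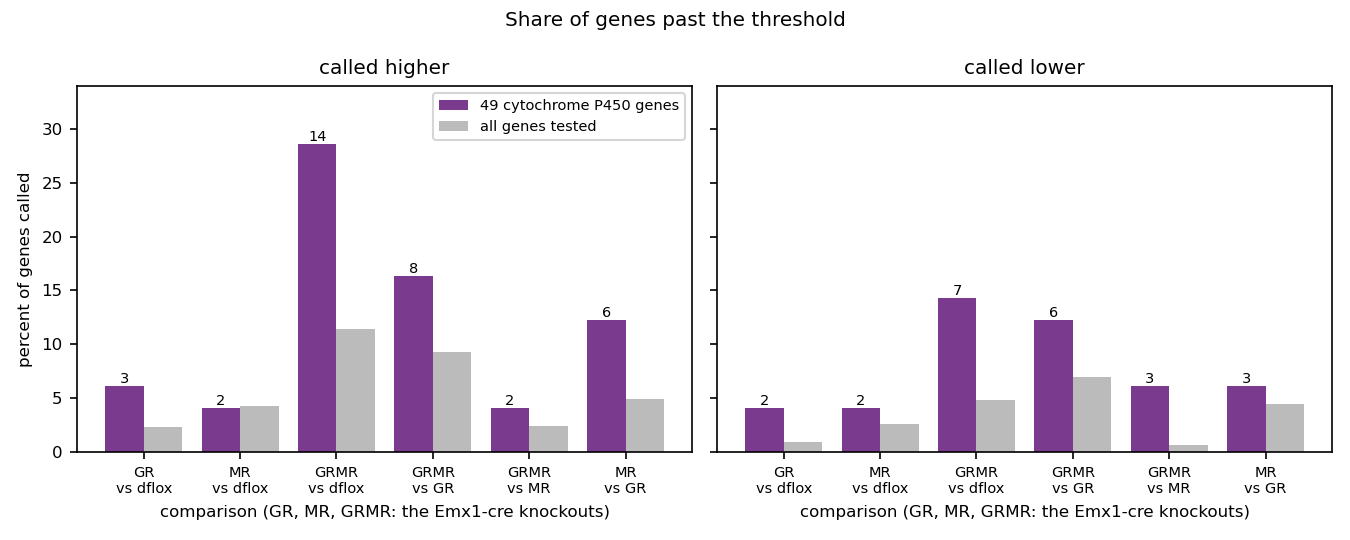
Percent of genes called higher (left) and lower (right) at an adjusted p below 0.05 in 6 comparisons, for the 49 cytochrome P450 genes (purple, with the number of genes above each bar) and for all 22872 genes tested (grey). In GRMREmx1-cre against dflox 14 P450 genes were higher and 7 lower, 28.6% and 14.3% of the members against 11.4% and 4.84% of all genes.

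The brightness of the probes stands beside these counts. Among the 36 members that were above background on every array with a value, 7 rose and 7 fell in GRMREmx1-cre against dflox, where 11.1% and 5.44% of the genes measured as well were called, and their median change was 0.026 where that of such genes was 0.017. The other 7 rises were on probes that were dim on at least 1 array, of which there were 13 among the members and of which none fell. Of all such dim probes 13.5% were called higher and 1.33% lower. Such a probe passes the filter through the arrays on which it is bright, so its rise is given as a description. The median change of dim probes was 1.0 for the members and 0.34 over all genes. Log2 changes of dim probes are large where the signal of the lower group is near background. With the local background subtracted and an offset of 50 added, which compresses dim signals, the change in GRMREmx1-cre against dflox was 0.43 for Cyp2c23, 0.52 for Cyp4a14, 0.36 for Cyp4f39 and 0.25 for Cyp2c66, which still passed. It was 0.22 for Cyp2a22, 0.26 for Cyp2a5 and 0.13 for Cyp19a1, which did not. The change became 1.03 for Cyp4a10, 0.96 for Cyp2c70, 0.48 for Cyp2a4, 0.50 for Cyp2b19, 0.38 for Cyp2d26 and 0.18 for Cyp2u1, and all of these passed. For Cyp4f15, Cyp17a1, Cyp2s1 and Cyp3a11 it moved by less than 1.5 times.

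**Figure D2:**
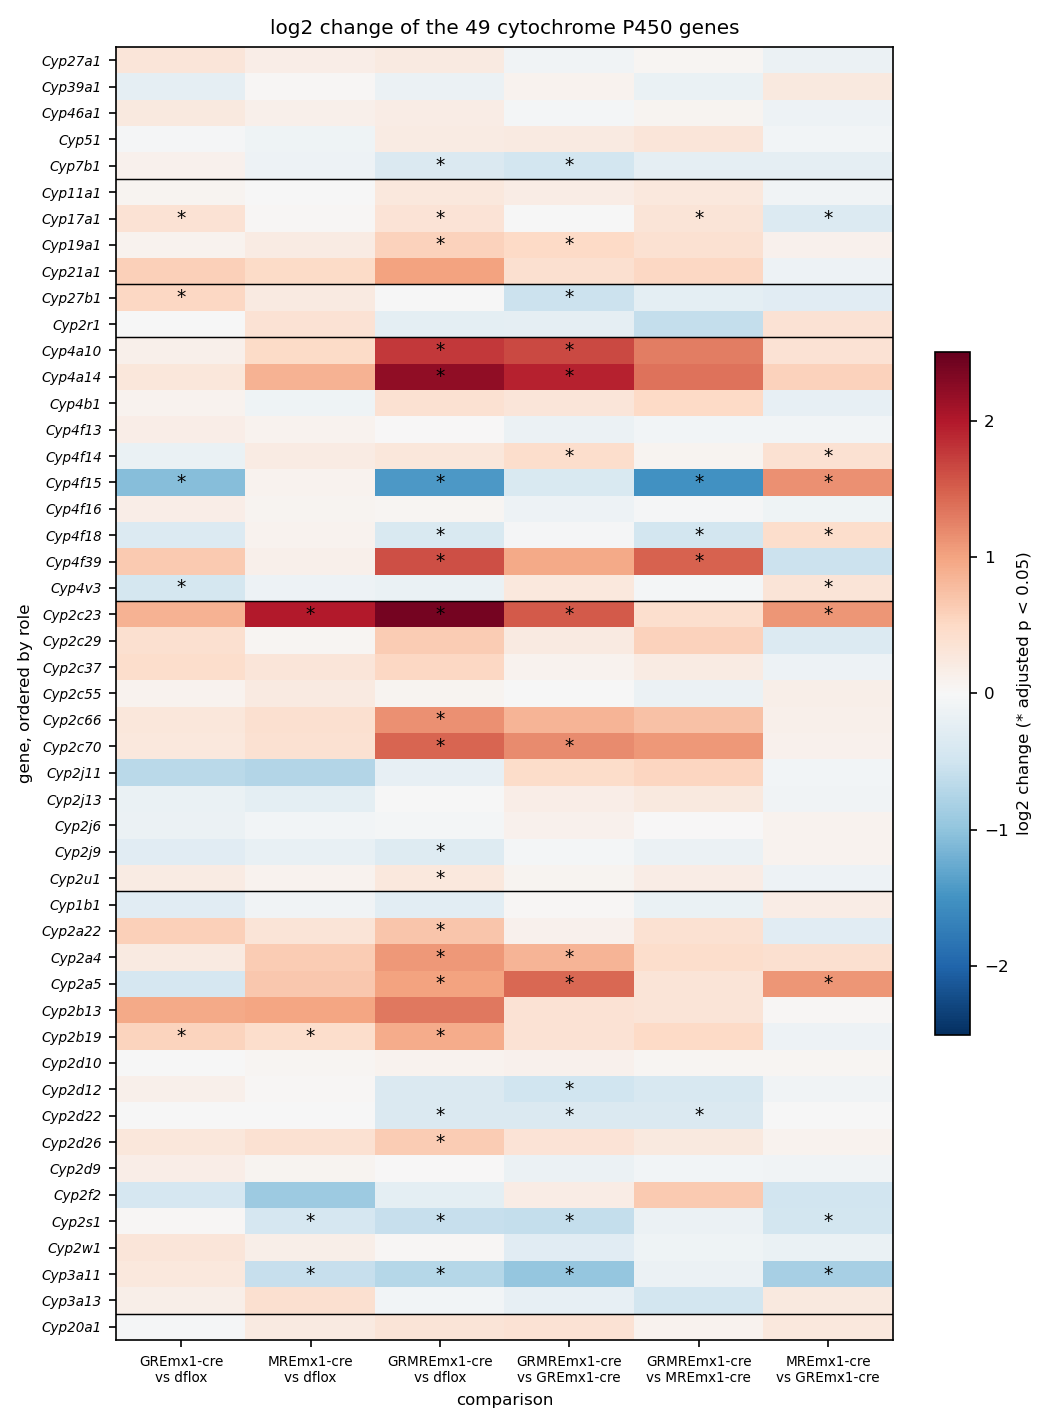
Change of each of the 49 cytochrome P450 genes (rows, ordered by role and separated by lines) in 6 comparisons (columns), as the difference of log2 group means from blue (lower in the first group) to red (higher), with a star where the adjusted p is below 0.05. Most rows are pale, the stars gather in the column of GRMREmx1-cre against dflox (21 genes), and Cyp4f15, Cyp2c23, Cyp4a10 and Cyp4a14 are among the deepest colours.

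Of the 5 sterol and bile acid enzymes, 1 fell in GRMREmx1-cre against dflox and none was called in the single knockouts. Over all genes 4.84% were called lower in GRMREmx1-cre. The member that moved was Cyp7b1, which hydroxylates oxysterols and neurosteroids such as DHEA and is known for its high level in the mouse hippocampus. Cyp7b1 stood at 2.20, 2.28, 1.98 and 2.31 in dflox, at 2.40, 2.21, 2.33 and 2.21 in GREmx1-cre, at 2.08, 1.99, 2.12 and 2.03 in MREmx1-cre and at 1.93, 1.93 and 1.64 in GRMREmx1-cre. All 3 GRMREmx1-cre arrays lay below every other array, and dflox overlapped both single knockouts. Against dflox Cyp7b1 fell to 78.0% (-0.36 ± 0.0913 SE, limma's adjusted p = 0.0183, n = 3 and 4), a call that was lost on leaving out array 3 of GRMREmx1-cre (-0.43 to -0.26, adjusted p up to 0.0838). Against GREmx1-cre it fell to 72.9% (-0.46 ± 0.0913, adjusted p = 0.00538), and the call held without any 1 array (-0.51 to -0.36).

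Cyp46a1, the neuronal hydroxylase through which the brain exports cholesterol, did not pass in any comparison. Cyp46a1 stood at 0.31, 0.31, 0.22 and 0.50 in dflox, at 0.46, 0.56, 0.58 and 0.69 in GREmx1-cre, at 0.35, 0.49, 0.42 and 0.55 in MREmx1-cre and at 0.62, 0.47 and 0.50 in GRMREmx1-cre. All groups overlapped dflox in at least 1 array, with changes of 0.24, 0.12 and 0.19 in GREmx1-cre, MREmx1-cre and GRMREmx1-cre (adjusted p = 0.0915, 0.359 and 0.105). Cyp27a1 stood at -4.23, -4.42, -4.42 and -4.31 in dflox, at -4.06, -4.22, -3.89 and -3.99 in GREmx1-cre, at -4.32, -4.42, -3.98 and -4.02 in MREmx1-cre and at -4.05, -4.18 and -4.15 in GRMREmx1-cre. This is the mitochondrial sterol hydroxylase. Its GREmx1-cre and GRMREmx1-cre arrays all lay above the dflox arrays, but the changes of 0.31 and 0.22 did not pass (adjusted p = 0.126 and 0.206). Cyp39a1 stood at -3.07, -3.26, -2.80 and -3.35 in dflox, at -3.50, -3.32, -3.28 and -3.29 in GREmx1-cre, at -3.04, -3.16, -3.01 and -3.18 in MREmx1-cre and at -3.46, -3.51 and -2.83 in GRMREmx1-cre. Cyp39a1 acts on the cholesterol product of Cyp46a1, and each knockout group overlapped dflox, with changes against dflox from -0.22 to 0.023. With normexp background correction GRMREmx1-cre stood at 0.82 for Cyp39a1 against dflox and at 0.80 against MREmx1-cre, and at 1.16 for Cyp27a1 against GREmx1-cre (adjusted p = 0.0308, 0.0360 and 0.0187), where the reported values were -0.14, -0.17 and -0.088. Cyp51 stood at -0.39, -0.50, -0.31 and -0.38 in dflox, at -0.70, -0.42, -0.39 and -0.18 in GREmx1-cre, at -0.40, -0.58, -0.53 and -0.49 in MREmx1-cre and at -0.16, -0.24 and -0.20 in GRMREmx1-cre. This lanosterol demethylase, a step of cholesterol synthesis, was higher on every GRMREmx1-cre array than on every dflox array, by 0.20 (adjusted p = 0.191), and no comparison passed.

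Of the 4 steroid hormone enzymes, 1 was called in GREmx1-cre and 2 in GRMREmx1-cre against dflox, all higher. Over all genes 2.26% and 11.4% were called higher in these groups. Cyp17a1, whose enzyme makes the precursors of androgens, was higher in both groups that lack GR. Cyp17a1 stood at -0.74, -0.81, -0.98 and -0.87 in dflox, at -0.46, -0.56, -0.52 and -0.45 in GREmx1-cre, at -0.72, -0.97, -0.85 and -0.79 in MREmx1-cre and at -0.48, -0.52 and -0.52 in GRMREmx1-cre. The GREmx1-cre and GRMREmx1-cre arrays all lay above the dflox and MREmx1-cre arrays, with no overlap. Cyp17a1 rose 1.28-fold in GREmx1-cre (0.35 ± 0.0618 SE, limma's adjusted p = 0.0111, n = 4 and 4) and 1.27-fold in GRMREmx1-cre (0.34 ± 0.0668, adjusted p = 0.00421, n = 3 and 4), and both calls held without any 1 array. In MREmx1-cre it stood at 0.021 against dflox (adjusted p = 0.881), and MREmx1-cre lay below GREmx1-cre (-0.33 ± 0.0618, adjusted p = 0.00537).

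Cyp19a1, the aromatase that makes estrogens, was dim and was called higher in GRMREmx1-cre. Cyp19a1 stood at -5.95, -5.77, -5.44 and -5.56 in dflox, at -5.64, -5.88, -5.43 and -5.45 in GREmx1-cre, at -5.59, -5.34, -5.48 and -5.53 in MREmx1-cre and at -5.30, -5.08 and -4.91 in GRMREmx1-cre. The 3 GRMREmx1-cre arrays were above all others, while the remaining groups overlapped. The rise against dflox was 1.5-fold (0.58 ± 0.138 SE, limma's adjusted p = 0.0123, n = 3 and 4), a call that was lost on leaving out array 3 of GRMREmx1-cre (0.49 to 0.68, adjusted p up to 0.0585) and did not pass with quantile normalization or local background subtracted. Cyp11a1 stood at -3.94, -3.77, -3.87 and -3.97 in dflox, at -3.60, -3.78, -3.82 and -4.06 in GREmx1-cre, at -4.04, -3.71, -4.06 and -3.81 in MREmx1-cre and at -3.61, -3.74 and -3.55 in GRMREmx1-cre. Cyp11a1, which starts steroid synthesis from cholesterol, had its highest mean in GRMREmx1-cre, but the arrays overlapped those of GREmx1-cre and MREmx1-cre and no change passed (0.26 against dflox, adjusted p = 0.137). Cyp21a1 stood at -6.04, -5.78, -6.70 and -6.47 in dflox, at -4.63, -6.96, -5.66 and -5.33 in GREmx1-cre, at -5.74, -6.08, -5.94 and -5.30 in MREmx1-cre and at -5.55, -5.18 and -5.02 in GRMREmx1-cre. Cyp21a1, of glucocorticoid and mineralocorticoid synthesis, was well above background on 0 of 4 dflox, 3 of 4 GREmx1-cre, 2 of 4 MREmx1-cre and 3 of 3 GRMREmx1-cre arrays. Its changes against dflox did not pass (adjusted p = 0.439, 0.522 and 0.134 in the same order).

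Of the 2 vitamin D enzymes, Cyp27b1, which forms the active hormone, rose in GREmx1-cre. Cyp27b1 stood at -3.87, -4.14, -4.28 and -3.79 in dflox, at -3.58, -3.54, -3.45 and -3.42 in GREmx1-cre, at -3.91, -4.0, -3.69 and -3.56 in MREmx1-cre and at -3.86, -4.08 and -4.18 in GRMREmx1-cre. All GREmx1-cre arrays lay above the dflox arrays, and 1 MREmx1-cre array reached into the GREmx1-cre range. The rise was 1.43-fold (0.52 ± 0.121 SE, limma's adjusted p = 0.0369, n = 4 and 4). That call was lost on leaving out array 2 or array 3 of dflox, any of the 4 GREmx1-cre arrays or array 2 of GRMREmx1-cre (0.43 to 0.60, adjusted p up to 0.107) and did not pass with quantile normalization or median scaling or without a filter on dim probes. GRMREmx1-cre stood at -0.019 against dflox and fell to 68.9% of the GREmx1-cre level (-0.54 ± 0.131, adjusted p = 0.0148), a call that was lost on leaving out array 2 or array 3 of GRMREmx1-cre (-0.63 to -0.47, adjusted p up to 0.0687), and the change turned to 0.92 with normexp background correction. With that correction Cyp27b1 was also called higher in GRMREmx1-cre against dflox (1.26) and MREmx1-cre (1.10). Cyp2r1 stood at -7.26, -4.08, -8.00 and -6.60 in dflox, at -3.81, -8.56, -6.40 and -7.21 in GREmx1-cre, at -6.03, -6.12, -6.23 and -6.15 in MREmx1-cre and at -6.84, -6.79 and -6.55 in GRMREmx1-cre. Cyp2r1, the first hydroxylase of vitamin D activation, was well above background on 7 of the 15 arrays, spread widely in dflox and GREmx1-cre, and was called in no comparison. Its changes of -0.24, -0.23 and -0.59 in GRMREmx1-cre against dflox, GREmx1-cre and MREmx1-cre became 1.47, 1.36 and 1.47 with normexp background correction, all of which passed.

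**Figure D3:**
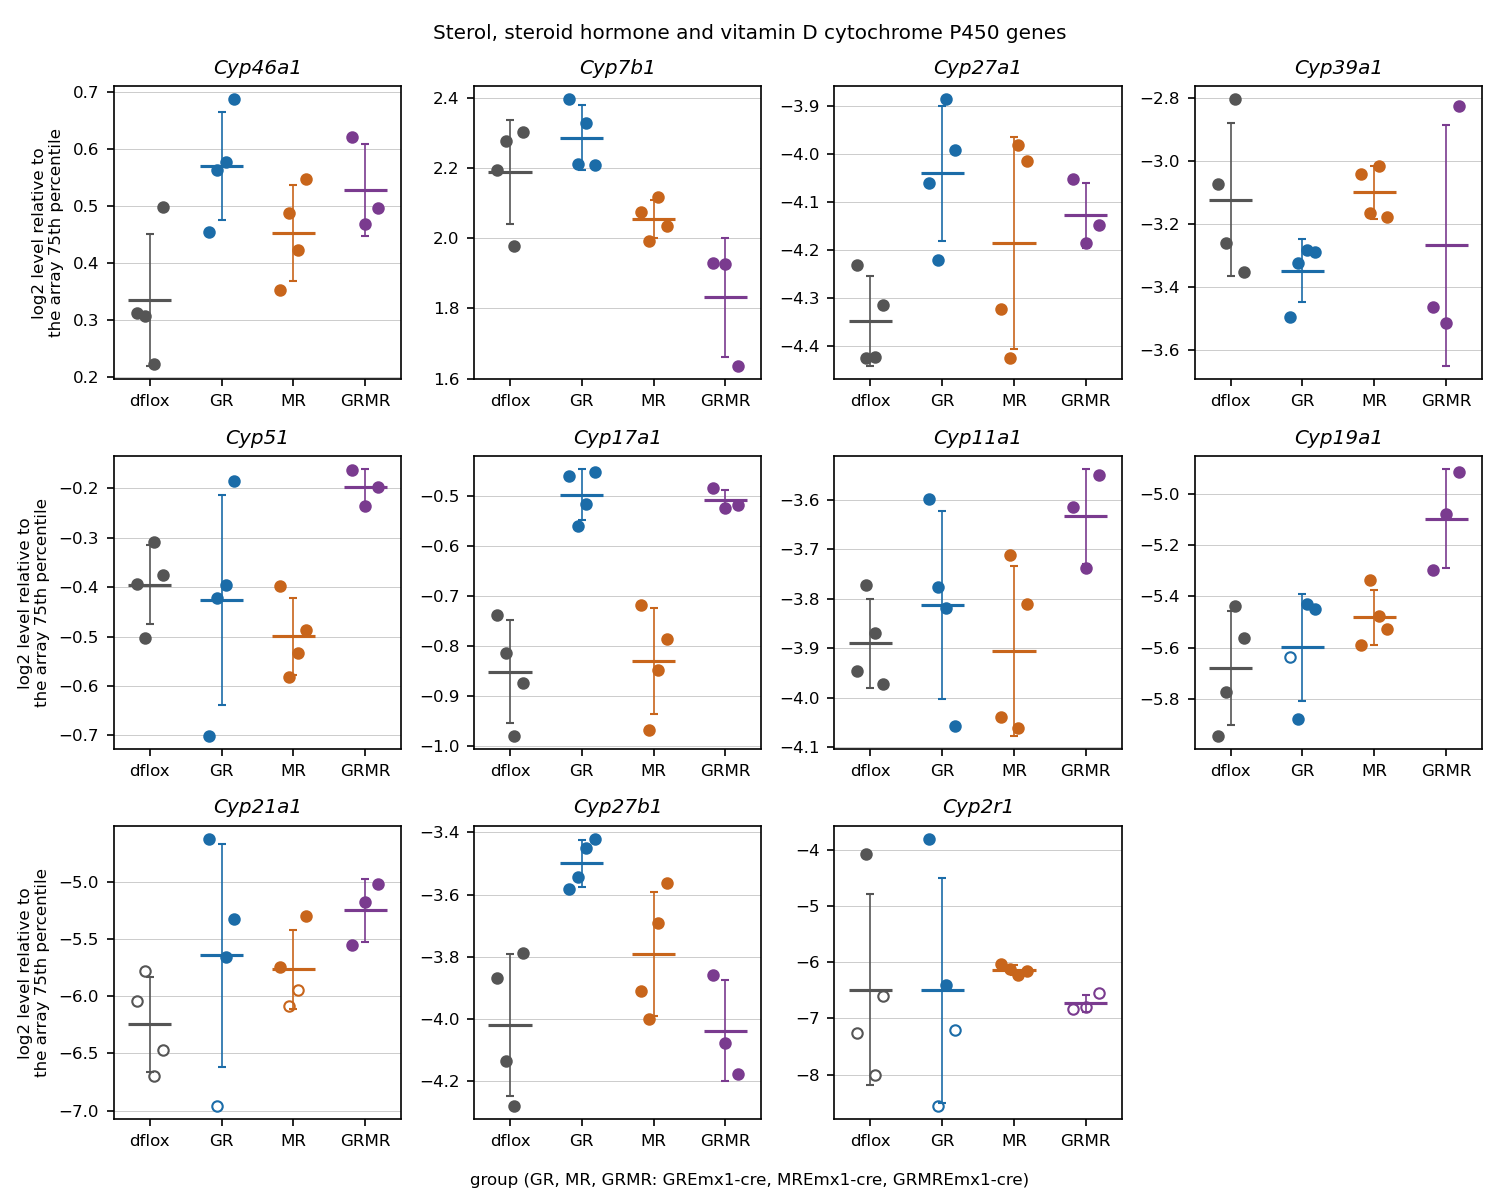
Log2 level of the 11 sterol, steroid hormone and vitamin D P450 genes on each array, by group; filled circles are arrays on which the probe was well above background, open circles arrays on which it was not, lines are group means and bars 1 SD. Cyp17a1 is higher on every GREmx1-cre and GRMREmx1-cre array than on every dflox and MREmx1-cre array, and Cyp7b1 is lowest in GRMREmx1-cre.

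The 10 members of the CYP4 family, which hydroxylate the ends of fatty acids and inactivate eicosanoids such as leukotrienes, held both rises and decreases. After loss of GR 2 of them fell, none was called in MREmx1-cre, and in GRMREmx1-cre 3 rose and 2 fell. Over all genes 0.888% were called lower in GREmx1-cre, and 11.4% higher and 4.84% lower in GRMREmx1-cre. Cyp4f15, a CYP4F fatty acid hydroxylase on chromosome 17, was low in both groups that lack GR. Cyp4f15 stood at 0.29, -0.16, -0.014 and 0.37 in dflox, at -1.12, -0.85, -0.87 and -0.88 in GREmx1-cre, at -0.11, 0.44, 0.38 and 0.10 in MREmx1-cre and at -1.56, -1.21 and -1.17 in GRMREmx1-cre. All 7 arrays of these 2 groups lay below all 8 arrays of dflox and MREmx1-cre. Cyp4f15 fell to 48.1% of the dflox level in GREmx1-cre (-1.06 ± 0.147 SE, limma's adjusted p = 0.00346, n = 4 and 4). With both receptors lost it fell to 37.0% (-1.44 ± 0.159, adjusted p = 1.42e-04). Against MREmx1-cre the GRMREmx1-cre level was 35.0% (-1.52 ± 0.159, adjusted p = 4.32e-04), and MREmx1-cre stood at 0.080 against dflox (adjusted p = 0.799). Each of these calls of Cyp4f15 held without any 1 array.

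Cyp4f18, whose mouse enzyme breaks down leukotriene B4 in myeloid cells, fell in GRMREmx1-cre. Cyp4f18 stood at -1.72, -1.90, -1.79 and -1.61 in dflox, at -2.23, -2.12, -2.15 and -1.92 in GREmx1-cre, at -1.94, -1.51, -1.52 and -1.69 in MREmx1-cre and at -2.13, -2.12 and -2.14 in GRMREmx1-cre. The 3 GRMREmx1-cre arrays lay below all dflox and MREmx1-cre arrays, and the GREmx1-cre arrays all lay below those of dflox. In GRMREmx1-cre Cyp4f18 fell to 77.1% of dflox (-0.38 ± 0.104 SE, limma's adjusted p = 0.0276, n = 3 and 4), a call that was lost on leaving out array 1 or array 4 of dflox or any of the 3 GRMREmx1-cre arrays (-0.42 to -0.33, adjusted p up to 0.0772) and did not pass with local background subtracted. GREmx1-cre stood at -0.35 (adjusted p = 0.0721) against dflox and was lower than MREmx1-cre, since MREmx1-cre exceeded it (0.44 ± 0.0967, adjusted p = 0.0134), although the highest GREmx1-cre array lay just above the lowest MREmx1-cre array. With normexp background correction the change in GRMREmx1-cre against dflox turned to 0.29 and that against MREmx1-cre to 0.21. Cyp4f18 lies on chromosome 8, 25 tested genes from Nr3c2, one of the floxed genes. Read from the names, dflox, MREmx1-cre and GRMREmx1-cre all hold the floxed Nr3c2, and the labels do not say whether GREmx1-cre does. In comparisons with GREmx1-cre, what the neighbouring allele contributes therefore cannot be told apart from receptor loss. Between the other groups a part of the allele was not tested.

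Cyp4v3, counterpart of the human gene of Bietti crystalline dystrophy, fell in GREmx1-cre. Cyp4v3 stood at -0.92, -1.01, -0.87 and -0.95 in dflox, at -1.57, -1.26, -1.41 and -1.27 in GREmx1-cre, at -0.91, -1.05, -1.23 and -1.03 in MREmx1-cre and at -1.30, -1.0 and -1.01 in GRMREmx1-cre. All GREmx1-cre arrays lay below all dflox and MREmx1-cre arrays, and 1 GRMREmx1-cre array lay within their range. Its level was 73.7% of dflox (-0.44 ± 0.0896 SE, limma's adjusted p = 0.0213, n = 4 and 4), a call that was lost on leaving out array 1 or array 3 of dflox or array 1 or array 3 of GREmx1-cre (-0.48 to -0.38, adjusted p up to 0.0691). In GRMREmx1-cre Cyp4v3 stood at -0.17 (adjusted p = 0.265). It also lies on chromosome 8, 186 tested genes from Nr3c2. Cyp4f14 stood at 0.31, 0.34, 0.34 and 0.37 in dflox, at -0.0016, 0.25, 0.25 and 0.17 in GREmx1-cre, at 0.52, 0.64, 0.50 and 0.52 in MREmx1-cre and at 0.34, 0.83 and 0.67 in GRMREmx1-cre. On every array Cyp4f14, a leukotriene and fatty acid hydroxylase of mouse liver, was below the dflox range in GREmx1-cre and above it in MREmx1-cre. Its changes against dflox did not pass (-0.17, 0.20 and 0.28, adjusted p = 0.328, 0.208 and 0.0752). It exceeded GREmx1-cre in MREmx1-cre (0.38 ± 0.0904, adjusted p = 0.0209) and in GRMREmx1-cre (0.45 ± 0.0977, adjusted p = 0.00854). The first of these calls was lost on leaving out array 1 of GREmx1-cre or array 2 of MREmx1-cre (0.32 to 0.41, adjusted p up to 0.0626), and the second held without any 1 array.

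The rises of the family were those of Cyp4a10, Cyp4a14 and Cyp4f39 in GRMREmx1-cre. Cyp4a10 and Cyp4a14 are fatty acid hydroxylases that PPAR-alpha ligands induce in mouse liver, and they lie on chromosome 4. Cyp4a10 stood at -4.33, -4.56, -4.57 and -4.33 in dflox, at -4.40, -3.95, -4.53 and -4.43 in GREmx1-cre, at -4.15, -4.59, -3.00 and -4.13 in MREmx1-cre and at -2.71, -1.96 and -3.37 in GRMREmx1-cre. The GRMREmx1-cre arrays lay above all others except MREmx1-cre replicate 3, which exceeded the lowest of them. Cyp4a10 rose 3.41-fold against dflox (1.77 ± 0.350 SE, limma's adjusted p = 0.00454, n = 3 and 4) and 3.14-fold against GREmx1-cre (1.65 ± 0.350, adjusted p = 0.00748), and both calls held without any 1 array. Cyp4a14 stood at -6.70, -7.64, -7.70 and -5.98 in dflox, at -6.52, -7.64, -6.48 and -6.27 in GREmx1-cre, at -6.23, -5.48, -7.21 and -5.66 in MREmx1-cre and at -4.63, -4.80 and -4.96 in GRMREmx1-cre. Cyp4a14 was well above background on 1 of 4 dflox, 0 of 4 GREmx1-cre, 3 of 4 MREmx1-cre and all GRMREmx1-cre arrays, and the GRMREmx1-cre arrays lay above all others. Against dflox it was at least 2.64-fold higher (log2 change 2.21, limma's adjusted p = 0.00789, n = 3 and 4), and the call held without any 1 array. Against GREmx1-cre it was at least 2.56-fold higher (log2 change 1.93, limma's adjusted p = 0.0171). That call was lost on leaving out array 1 or array 2 of GRMREmx1-cre (log2 change 1.63 to 2.09, adjusted p up to 0.0561). A fold given as at least a value is used where at most 1 array of a group was well above background. It sets the bright group's mean against the higher, on each dim-group array, of the probe's own and the lowest signal well above background. A probe above that lowest signal can still lack the flag. On dflox replicate 2 Cyp2c55 lacked it at -5.72, while Cyp19a1 had it at -5.77. Every such fold is therefore a cautious estimate and not a strict lower bound. The p-values beside such folds, and the ranges over left-out arrays, belong to the log2 change. Neither gene passed in GREmx1-cre or MREmx1-cre against dflox, with Cyp4a14 at 0.86 in MREmx1-cre (adjusted p = 0.286). The paralogs are closely related, and cross-hybridisation between their probes was not tested.

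Cyp4f39, the mouse counterpart of a human ceramide-forming hydroxylase of the skin, was well above background on 0 of 4 dflox, 2 of 4 GREmx1-cre, 1 of 4 MREmx1-cre and 3 of 3 GRMREmx1-cre arrays. Cyp4f39 stood at -6.44, -7.69, -6.29 and -6.67 in dflox, at -6.76, -5.78, -5.58 and -6.33 in GREmx1-cre, at -6.72, -6.49, -7.16 and -6.20 in MREmx1-cre and at -5.11, -5.01 and -5.37 in GRMREmx1-cre. The 3 GRMREmx1-cre arrays lay above all others. Against dflox the rise was at least 2.19-fold (log2 change 1.61, limma's adjusted p = 0.00737, n = 3 and 4), and the call held without any 1 array. Against MREmx1-cre it was at least 2.36-fold (log2 change 1.48, limma's adjusted p = 0.0390). That call was lost on leaving out any of 9 of the 15 arrays, all but array 2 and array 3 of dflox, array 1, array 2 and array 3 of GREmx1-cre and array 4 of MREmx1-cre (log2 change 1.31 to 1.63, adjusted p up to 0.15). It did not pass with median scaling or without a filter on dim probes. With the replicate number as a block in the fit, the call of Cyp4f39 against MREmx1-cre did not pass. The remaining CYP4 genes Cyp4b1, Cyp4f13 and Cyp4f16 were called in no comparison. Cyp4b1 stood at 0.39 in GRMREmx1-cre against dflox (adjusted p = 0.151), and Cyp4f13 and Cyp4f16 at 0.019 and 0.041.

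**Figure D4:**
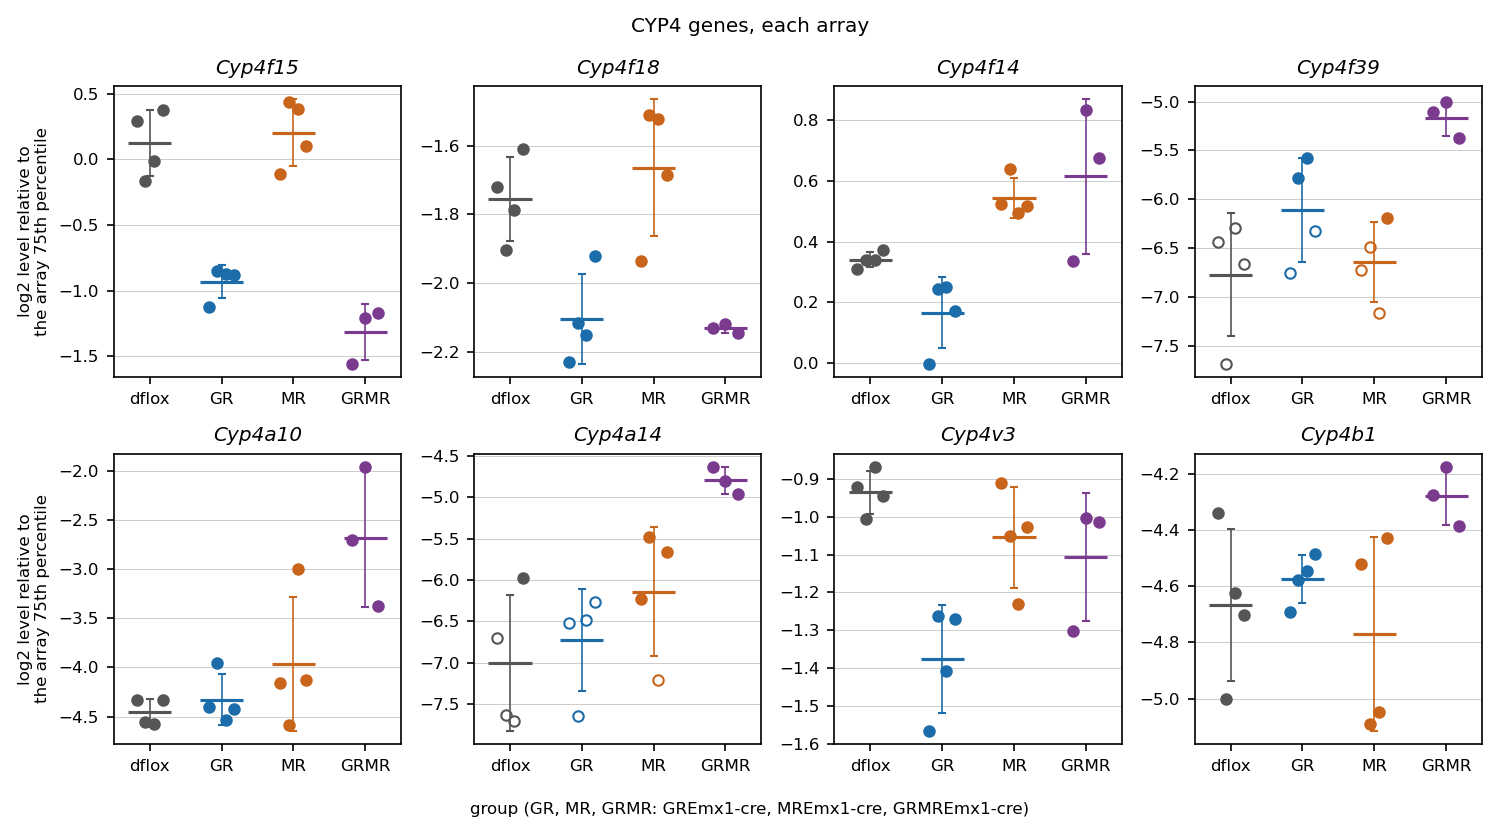
Log2 level of 8 CYP4 genes on each array, by group, with group means (lines) and 1 SD (bars); open circles mark arrays on which the probe was not well above background. Cyp4f15 lies near -1 in GREmx1-cre and GRMREmx1-cre and near 0 in dflox and MREmx1-cre, and Cyp4a10, Cyp4a14 and Cyp4f39 are highest in GRMREmx1-cre.

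The 11 genes of the CYP2C and CYP2J families and Cyp2u1 form epoxides and hydroxy acids of arachidonic acid. Against dflox none was called in GREmx1-cre, 1 rose in MREmx1-cre, and 4 rose and 1 fell in GRMREmx1-cre. Over all genes 4.21% were called higher in MREmx1-cre, and 11.4% higher and 4.84% lower in GRMREmx1-cre. Cyp2c23, whose rat counterpart is an arachidonic acid epoxygenase of the kidney, was well above background on all 4 MREmx1-cre and all 3 GRMREmx1-cre arrays and on none of the dflox and GREmx1-cre arrays. Cyp2c23 stood at -7.18, -7.52, -6.93 and -8.61 in dflox, at -6.97, -6.28, -6.55 and -6.98 in GREmx1-cre, at -5.73, -5.39, -5.18 and -6.03 in MREmx1-cre and at -4.89, -5.32 and -5.30 in GRMREmx1-cre. Every array of the groups that lack MR lay above every array of the groups that retain it. The probe passed the filter only through the arrays of the groups that lack MR. Its rises and their p-values are therefore given as a description. Against dflox Cyp2c23 was at least 1.64-fold higher in MREmx1-cre (limma's adjusted p = 0.00316, n = 4 and 4) and at least 2.19-fold higher in GRMREmx1-cre (adjusted p = 6.73e-04, n = 3 and 4), and both calls held without any 1 array. With local background subtracted these changes fell from 1.98 and 2.39 to 0.37 and 0.43 and still passed. Cyp2c23 was at least 1.98-fold higher in GRMREmx1-cre than in GREmx1-cre (adjusted p = 0.0102), which held without any 1 array but did not pass with local background subtracted (0.17, against 1.53). MREmx1-cre was at least 1.48-fold above GREmx1-cre (log2 change 1.11, limma's adjusted p = 0.0464). That call was lost on leaving out any of 11 of the 15 arrays, all but array 3 and array 4 of dflox, array 2 of GREmx1-cre and array 4 of MREmx1-cre (log2 change 0.98 to 1.26, adjusted p up to 0.116). It did not pass with quantile normalization, local background subtracted or a trended robust fit or without a filter on dim probes.

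Cyp2c70, which in mouse liver makes the muricholic bile acids, rose in GRMREmx1-cre. Cyp2c70 stood at -3.97, -3.93, -4.02 and -3.68 in dflox, at -3.93, -3.11, -3.61 and -3.87 in GREmx1-cre, at -2.66, -3.60, -3.95 and -3.87 in MREmx1-cre and at -1.83, -2.68 and -2.80 in GRMREmx1-cre. GRMREmx1-cre lay above dflox and GREmx1-cre, and MREmx1-cre replicate 1 reached into its range. The rise was 2.75-fold against dflox (1.46 ± 0.313 SE, limma's adjusted p = 0.00713, n = 3 and 4), which held without any 1 array (1.16 to 1.64), and 2.28-fold against GREmx1-cre (1.19 ± 0.313, adjusted p = 0.0219), which was lost on leaving out array 1 or array 4 of GREmx1-cre or array 1 of GRMREmx1-cre (0.89 to 1.37, adjusted p up to 0.0907). Cyp2c66 stood at -6.96, -7.40, -6.51 and -5.89 in dflox, at -7.03, -5.85, -6.26 and -6.48 in GREmx1-cre, at -6.63, -6.40, -6.28 and -5.81 in MREmx1-cre and at -5.83, -5.46 and -5.36 in GRMREmx1-cre. Cyp2c66, a further CYP2C gene, was well above background on 1 of 4 dflox and all 3 GRMREmx1-cre arrays, and these groups did not overlap. Its rise was at least 1.54-fold (log2 change 1.14, limma's adjusted p = 0.0370). The call was lost on leaving out array 1, array 2 or array 3 of dflox or any of the 3 GRMREmx1-cre arrays (log2 change 0.90 to 1.41, adjusted p up to 0.114). It did not pass with quantile normalization or median scaling or without a filter on dim probes. Cyp2u1 stood at -3.04, -3.30, -3.02 and -3.12 in dflox, at -2.96, -2.84, -2.95 and -2.91 in GREmx1-cre, at -2.99, -3.13, -2.95 and -3.09 in MREmx1-cre and at -2.87, -2.80 and -2.90 in GRMREmx1-cre. Cyp2u1, a fatty acid hydroxylase of brain and thymus, changed by little, with GRMREmx1-cre above all dflox and MREmx1-cre arrays. The rise of 1.20-fold (0.27 ± 0.0700, adjusted p = 0.0214) was lost on leaving out array 1 or array 2 of GRMREmx1-cre (0.21 to 0.30, adjusted p up to 0.0921) and did not pass with quantile normalization or median scaling.

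Cyp2j9, an arachidonic acid hydroxylase found mainly in mouse brain, was the one gene of the group that fell. Cyp2j9 stood at 2.21, 2.13, 2.17 and 2.28 in dflox, at 1.83, 1.95, 1.95 and 1.91 in GREmx1-cre, at 2.07, 2.14, 1.91 and 1.91 in MREmx1-cre and at 1.69, 1.98 and 1.94 in GRMREmx1-cre. All GRMREmx1-cre and all GREmx1-cre arrays lay below the dflox arrays. In GRMREmx1-cre Cyp2j9 fell to 79.6% of dflox (-0.33 ± 0.0781 SE, limma's adjusted p = 0.0126, n = 3 and 4), a call that was lost on leaving out array 1 of GRMREmx1-cre (-0.38 to -0.24, adjusted p up to 0.0560) and did not pass with local background subtracted, and GREmx1-cre stood at -0.29 (adjusted p = 0.0511). Cyp2c29, Cyp2c37, Cyp2c55, Cyp2j6, Cyp2j11 and Cyp2j13 were called in no comparison, and Cyp2j6 had no value on GRMREmx1-cre replicate 3, where its spot was an outlier. Their changes in GRMREmx1-cre against dflox ran from -0.21 to 0.64.

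The remaining 16 genes of the CYP1, CYP2 and CYP3 families, known mainly for drug and steroid metabolism in liver, lung and skin, gave 1 rise in GREmx1-cre, 1 rise and 2 decreases in MREmx1-cre, and 5 rises and 3 decreases in GRMREmx1-cre. Of the 8 P450 genes on chromosome 7, 4 rose and 1 fell in GRMREmx1-cre against dflox. Of the 7 on chromosome 19, which hold Cyp17a1 and the CYP2C genes, 4 rose. Of the 8 on chromosome 17, 1 rose and 1 fell, and no other chromosome had more than 2 rises. Of all tested genes 11.4% were called higher and 4.84% lower in GRMREmx1-cre. The shares were 2.26% higher in GREmx1-cre, and 4.21% higher and 2.6% lower in MREmx1-cre. The rises of Cyp2a5, Cyp2a22, Cyp2c23 and Cyp2c66 were on probes that were dim on at least 1 array. Cyp2a4 and Cyp2a5 are paralogs of the cluster on chromosome 7, a steroid and a coumarin hydroxylase of mouse liver. Their promoters are shown because the 2 genes rose together, followed by those of Cyp2b19 and Cyp2d26, which rose in GRMREmx1-cre and hold a receptor half-site. Each run is the 250 bases before the gene's start in RefSeq's GRCm38.p6, 5′ to 3′ on the gene's strand, with the TATA box letters TATAAA or the half-site letters AGAACA in capitals. The Cyp2a4 window is chr7:26306942-26307191 (plus strand), that of Cyp2a5 chr7:26835089-26835338 (plus strand), that of Cyp2b19 chr7:26756892-26757141 (plus strand) and that of Cyp2d26 chr15:82794246-82794495 (minus strand).
Cyp2a4: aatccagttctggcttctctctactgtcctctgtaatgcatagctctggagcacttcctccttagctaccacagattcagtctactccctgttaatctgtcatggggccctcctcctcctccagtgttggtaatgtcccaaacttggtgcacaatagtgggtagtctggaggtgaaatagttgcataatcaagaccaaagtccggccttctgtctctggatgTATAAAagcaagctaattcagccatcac
Cyp2a5: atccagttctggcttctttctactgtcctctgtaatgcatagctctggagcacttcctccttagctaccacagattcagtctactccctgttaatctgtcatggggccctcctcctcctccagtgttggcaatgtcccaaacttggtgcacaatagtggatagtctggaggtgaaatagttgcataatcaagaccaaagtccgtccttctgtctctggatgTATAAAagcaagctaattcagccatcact
Cyp2b19: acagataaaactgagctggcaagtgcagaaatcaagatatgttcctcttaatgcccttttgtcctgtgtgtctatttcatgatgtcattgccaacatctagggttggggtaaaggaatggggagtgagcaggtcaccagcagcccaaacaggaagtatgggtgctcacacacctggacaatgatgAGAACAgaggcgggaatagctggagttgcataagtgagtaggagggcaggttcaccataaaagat
Cyp2d26: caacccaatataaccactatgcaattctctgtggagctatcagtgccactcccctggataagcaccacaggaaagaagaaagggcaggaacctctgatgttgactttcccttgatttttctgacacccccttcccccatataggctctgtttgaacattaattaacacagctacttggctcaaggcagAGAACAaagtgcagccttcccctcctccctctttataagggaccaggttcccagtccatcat
The Cyp2a4 and Cyp2a5 windows were identical at 245 of 251 aligned positions (97.6%). The median was 53.0% over 32 promoter pairs within subfamilies or, for Cyp27a1 and Cyp27b1, within a family. Genes with more than 1 listed RefSeq start were left out of these pairs. TATAAA begins 28 bases before the Cyp2a4 start and 29 before that of Cyp2a5. Read on the gene's strand only, it occurs in 8 of the 46 member promoters matched in RefSeq and in 7.59% of all 32851 promoters. AGAACA, searched on both strands and forming the left arm of the full receptor element (AGAACA, any 3 bases, TGTTCT), begins 65 bases before the Cyp2b19 start and 62 before that of Cyp2d26. It lies in 5 of the 46 member promoters and in 16.1% of all promoters. The others of these are Cyp2d10, Cyp4b1 and Cyp2j6, which holds 2 half-sites, and none of them was called in any comparison. A link of the half-site to the rises was not tested. The full element, on both strands, was in 3 promoters of all and in 0 of the members'. A RefSeq promoter was found for 39 of the 49 members and for 17 of the 25 called in any comparison. A match of these letters is a description and not a bound site.

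Cyp2a4 stood at -4.97, -5.26, -4.97 and -5.07 in dflox, at -4.47, -5.71, -4.37 and -4.82 in GREmx1-cre, at -4.22, -4.67, -4.38 and -4.46 in MREmx1-cre and at -4.08, -4.0 and -3.88 in GRMREmx1-cre. GRMREmx1-cre lay above every other array, and MREmx1-cre above every dflox array. Cyp2a4 rose 2.12-fold in GRMREmx1-cre against dflox (1.08 ± 0.246 SE, limma's adjusted p = 0.00989, n = 3 and 4), a call that held without any 1 array (1.02 to 1.13). Its other probes gave 1.72 and 1.09 (limma's unadjusted p = 0.0139 and 0.00266). They were well above background on only 4 and 6 of the 15 arrays, so their values are given as a description. Cyp2a5 stood at -6.06, -5.60, -5.37 and -5.97 in dflox, at -5.59, -6.26, -5.99 and -6.83 in GREmx1-cre, at -4.89, -5.48, -5.26 and -4.65 in MREmx1-cre and at -4.71, -4.51 and -5.01 in GRMREmx1-cre. GRMREmx1-cre and GREmx1-cre did not overlap, and the lowest GRMREmx1-cre array lay above the highest dflox array. Cyp2a5 rose 2.01-fold against dflox (1.01 ± 0.278 SE, limma's adjusted p = 0.0262, n = 3 and 4), a call that was lost on leaving out array 1 or array 4 of dflox or array 1 or array 2 of GRMREmx1-cre (0.90 to 1.14, adjusted p up to 0.108) and did not pass with local background subtracted, and 2.69-fold against GREmx1-cre (1.43 ± 0.278, adjusted p = 0.00454), which held without any 1 array (1.21 to 1.62) but did not pass with local background subtracted. MREmx1-cre exceeded GREmx1-cre as well (1.10 ± 0.257, adjusted p = 0.0183), a call that was lost on leaving out array 4 of MREmx1-cre (0.88 to 1.29, adjusted p up to 0.0516) and did not pass with local background subtracted. With local background subtracted the changes were 0.21 against GREmx1-cre in GRMREmx1-cre and 0.18 in MREmx1-cre, and the Cyp2a5 probe was well above background on 2 of the 4 GREmx1-cre arrays. With the replicate number as a block in the fit, the call of Cyp2a5 in GRMREmx1-cre against dflox did not pass. Cyp2a4 and Cyp2a5 are near-identical, and cross-hybridisation between their probes was not tested. Cyp2a22 stood at -6.01, -5.71, -5.81 and -5.93 in dflox, at -5.32, -5.90, -5.06 and -4.80 in GREmx1-cre, at -5.88, -5.72, -5.43 and -5.17 in MREmx1-cre and at -5.17, -5.03 and -5.29 in GRMREmx1-cre. Cyp2a22, a further gene of the CYP2A cluster, was well above background on 0 of 4 dflox and all 3 GRMREmx1-cre arrays, which did not overlap. Its rise was 1.62-fold (log2 change 0.70, limma's adjusted p = 0.0489). The lowest signal well above background did not lower this fold, so it is the plain estimate and not a cautious one. The call was lost on leaving out any of 11 of the 15 arrays, all but array 2 and array 4 of GREmx1-cre and array 1 and array 4 of MREmx1-cre (log2 change 0.63 to 0.76, adjusted p up to 0.159). It did not pass with quantile normalization, median scaling, local background subtracted or a trended robust fit or without a filter on dim probes.

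Cyp2b19, an arachidonic acid epoxygenase of mouse keratinocytes, was called in all 3 knockout groups. Cyp2b19 stood at -4.55, -5.00, -4.89 and -4.58 in dflox, at -4.41, -4.17, -4.24 and -3.94 in GREmx1-cre, at -4.41, -4.35, -4.36 and -4.14 in MREmx1-cre and at -3.82, -3.96 and -3.68 in GRMREmx1-cre. Every knockout array lay above every dflox array, and GRMREmx1-cre was highest, with 1 of its arrays just below the highest GREmx1-cre array. It rose 1.48-fold in GREmx1-cre (0.56 ± 0.121 SE, limma's adjusted p = 0.0259, n = 4 and 4), 1.36-fold in MREmx1-cre (0.44 ± 0.121, adjusted p = 0.0461) and 1.91-fold in GRMREmx1-cre (0.93 ± 0.130, adjusted p = 5.55e-04). The call in GRMREmx1-cre held without any 1 array (0.85 to 1.0). The call in GREmx1-cre was lost on leaving out array 2 or array 3 of dflox or array 2, array 3 or array 4 of GREmx1-cre (0.48 to 0.64, adjusted p up to 0.0858) and did not pass with quantile normalization or median scaling, and that in MREmx1-cre was lost on leaving out any of 11 of the 15 arrays, all but array 1 and array 4 of dflox and array 1 and array 4 of GREmx1-cre (0.36 to 0.51, adjusted p up to 0.123) and did not pass with quantile normalization, median scaling or a trended robust fit or without a filter on dim probes.

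Cyp2s1, an epithelial P450 that dioxin induces, fell in both groups that lack MR. Cyp2s1 stood at -0.55, -0.56, -0.66 and -0.50 in dflox, at -0.73, -0.54, -0.46 and -0.41 in GREmx1-cre, at -1.13, -1.10, -0.88 and -0.86 in MREmx1-cre and at -1.22, -1.24 and -0.94 in GRMREmx1-cre. All MREmx1-cre and GRMREmx1-cre arrays lay below all dflox and GREmx1-cre arrays. Cyp2s1 fell to 74.4% of dflox in MREmx1-cre (-0.43 ± 0.0915 SE, limma's adjusted p = 0.0153, n = 4 and 4). With both receptors lost it fell to 67.4% of dflox (-0.57 ± 0.0988, adjusted p = 0.00211) and to 66.0% of GREmx1-cre (-0.60 ± 0.0988, adjusted p = 0.00176). All of these calls held without any 1 array, and that in GRMREmx1-cre against dflox did not pass with normexp. In GREmx1-cre the change against dflox was 0.029 (adjusted p = 0.906). Cyp3a11 stood at -1.86, -1.71, -2.25 and -1.81 in dflox, at -1.66, -1.85, -1.67 and -1.38 in GREmx1-cre, at -2.47, -2.77, -2.33 and -2.34 in MREmx1-cre and at -2.48, -2.79 and -2.58 in GRMREmx1-cre. Cyp3a11, the main drug-oxidising enzyme of mouse liver and a target of PXR there, showed the same separation of arrays. It fell to 67.5% of dflox in MREmx1-cre (-0.57 ± 0.138, adjusted p = 0.0288), which was lost on leaving out array 1, array 2 or array 4 of dflox or array 1 or array 2 of MREmx1-cre (-0.68 to -0.47, adjusted p up to 0.0777). In GRMREmx1-cre it fell to 61.3% of dflox (-0.71 ± 0.15, adjusted p = 0.00672) and to 50.8% of GREmx1-cre (-0.98 ± 0.15, adjusted p = 0.00115), and both calls held without any 1 array, although normexp background correction turned the change against dflox to 0.16 and ended the call against GREmx1-cre. The 4 GREmx1-cre arrays averaged 0.27 against dflox (adjusted p = 0.316).

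The CYP2D genes on chromosome 15 moved in different directions. Cyp2d22, often taken as the mouse counterpart of the human drug-oxidising CYP2D6, fell in GRMREmx1-cre. Cyp2d22 stood at -1.53, -1.70, -1.78 and -1.69 in dflox, at -1.78, -1.73, -1.62 and -1.59 in GREmx1-cre, at -1.72, -1.76, -1.57 and -1.69 in MREmx1-cre and at -2.0, -1.89 and -2.25 in GRMREmx1-cre. The GRMREmx1-cre arrays lay below all others. The level was 77.4% of dflox (-0.37 ± 0.0883 SE, limma's adjusted p = 0.0130, n = 3 and 4), a call that was lost on leaving out array 3 of GRMREmx1-cre (-0.44 to -0.27, adjusted p up to 0.0587) and did not pass with the mean of a gene's probes, and 77.6% of GREmx1-cre (-0.37 ± 0.0883, adjusted p = 0.0144). A second probe of Cyp2d22 gave -0.089 against dflox (unadjusted p = 0.535), so the probes disagree in size, and the change of the main probe turned to 0.39 against dflox, 0.36 against GREmx1-cre and 0.34 against MREmx1-cre with normexp background correction. Cyp2d26 stood at -4.27, -4.26, -4.26 and -4.36 in dflox, at -3.93, -4.12, -3.98 and -3.99 in GREmx1-cre, at -4.06, -4.10, -4.01 and -3.45 in MREmx1-cre and at -3.69, -3.69 and -3.57 in GRMREmx1-cre. Cyp2d26 was higher on each GRMREmx1-cre array than on each dflox and GREmx1-cre array, and rose 1.55-fold against dflox (0.64 ± 0.125, adjusted p = 0.00441), a call that held without any 1 array (0.60 to 0.66). Cyp2d12 stood at -2.83, -2.91, -2.91 and -2.88 in dflox, at -3.01, -2.81, -2.75 and -2.45 in GREmx1-cre, at -3.01, -3.05, -2.54 and -2.78 in MREmx1-cre and at -3.31, -3.21 and -3.24 in GRMREmx1-cre. Cyp2d12 was lower on every GRMREmx1-cre array than on all others and fell to 70.8% of the GREmx1-cre level (-0.50 ± 0.128, adjusted p = 0.0195), a call that was lost on leaving out any of the 3 GRMREmx1-cre arrays (-0.58 to -0.40, adjusted p up to 0.0608), and the change turned to 0.54 with normexp background correction. Against dflox it stood at -0.37 (adjusted p = 0.0683). Cyp1b1, Cyp2b13, Cyp2d9, Cyp2d10, Cyp2f2, Cyp2w1 and Cyp3a13 were called in no comparison, nor was Cyp20a1, whose substrate is unknown. Of these, Cyp2b13 stood furthest from dflox in GRMREmx1-cre (1.31, adjusted p = 0.109).

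**Figure D5:**
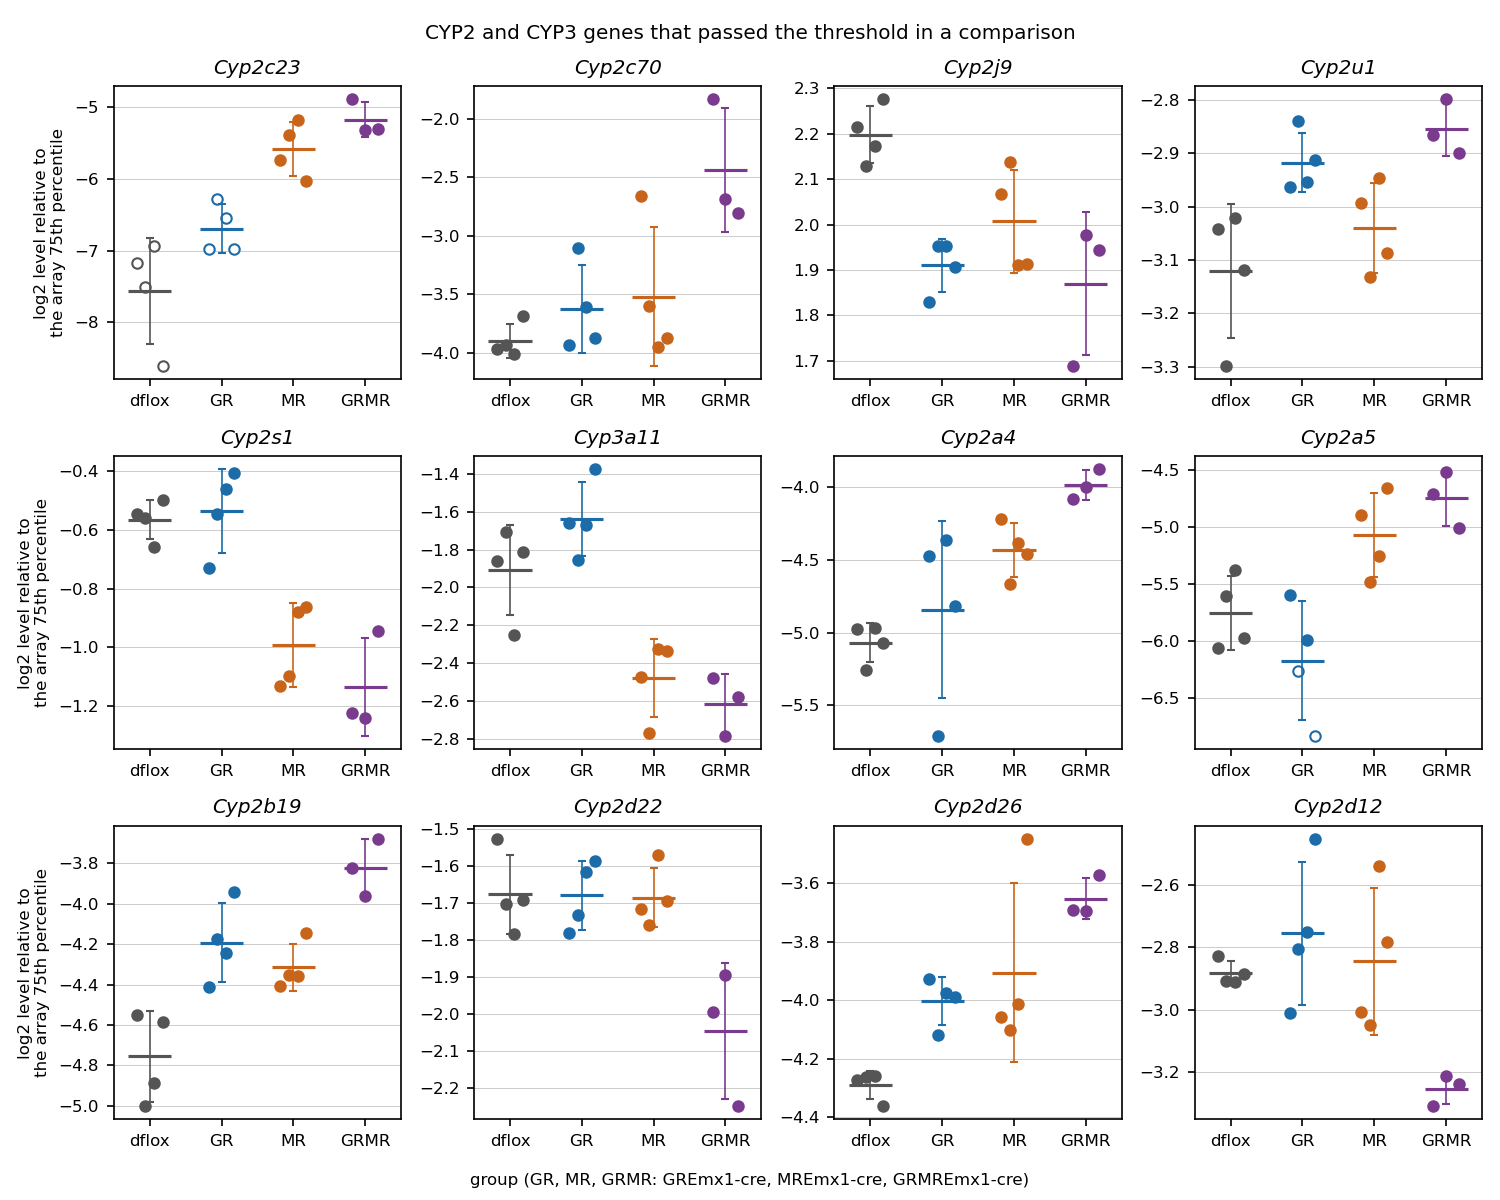
Log2 level of 12 CYP2 and CYP3 genes that passed the threshold in at least 1 comparison, on each array, by group; open circles are arrays on which the probe was not well above background, lines group means and bars 1 SD. Cyp2s1 and Cyp3a11 are lower and Cyp2c23 is higher on every MREmx1-cre and GRMREmx1-cre array than on every dflox and GREmx1-cre array.

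The last comparisons set the knockouts against each other. Between GRMREmx1-cre and GREmx1-cre, which both lack GR, 8 members were higher and 6 lower, with 16.1% of all genes called, 9.23% higher and 6.91% lower. The 8 were Cyp19a1, Cyp2a4, Cyp2a5, Cyp2c23, Cyp2c70, Cyp4a10, Cyp4a14 and Cyp4f14, and the 6 Cyp7b1, Cyp27b1, Cyp2d12, Cyp2d22, Cyp2s1 and Cyp3a11. The rise of Cyp19a1 (0.50 ± 0.138, adjusted p = 0.0269) was lost on leaving out array 1 or array 2 of GREmx1-cre or array 2 or array 3 of GRMREmx1-cre (0.41 to 0.60, adjusted p up to 0.118) and did not pass with quantile normalization, median scaling, local background subtracted or a trended robust fit, that of Cyp2a4 (0.86 ± 0.246, adjusted p = 0.0329) was lost on leaving out array 4 of GREmx1-cre or any of the 3 GRMREmx1-cre arrays (0.57 to 1.02, adjusted p up to 0.107) and did not pass without a filter on dim probes, and the decrease of Cyp2d22 was lost on leaving out array 3 of GRMREmx1-cre (-0.44 to -0.26, adjusted p up to 0.0679). Between GRMREmx1-cre and MREmx1-cre, which both lack MR, 2 members were higher and 3 lower, where 2.98% of all genes were called, 2.35% higher and 0.625% lower. Cyp17a1 (0.32 ± 0.0668, adjusted p = 0.0232) and Cyp4f39 were higher and Cyp4f15, Cyp4f18 (-0.47 ± 0.104, adjusted p = 0.0322) and Cyp2d22 (-0.36 ± 0.0883, adjusted p = 0.0472) lower. Of these 5 calls only that of Cyp4f15 held without any 1 array. That of Cyp17a1 was lost on leaving out array 2 or array 3 of MREmx1-cre or any of the 3 GRMREmx1-cre arrays (0.28 to 0.36, adjusted p up to 0.0842) and did not pass with median scaling, that of Cyp4f18 was lost on leaving out array 2, array 3 or array 4 of MREmx1-cre or any of the 3 GRMREmx1-cre arrays (-0.56 to -0.42, adjusted p up to 0.110) and did not pass with local background subtracted or without a filter on dim probes, and that of Cyp2d22 was lost on leaving out any of 13 of the 15 arrays, all but array 1 of dflox and array 1 of GREmx1-cre (-0.44 to -0.26, adjusted p up to 0.164) and did not pass with the mean of a gene's probes or without a filter on dim probes. With median scaling the split was 0 higher and 3 lower. With the replicate number as a block in the fit, the calls of Cyp2d22, Cyp4f18 and Cyp4f39 did not pass.

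MREmx1-cre and GREmx1-cre differed in 9 members, 6 higher and 3 lower in MREmx1-cre, where 9.33% of all genes were called, 4.91% higher and 4.42% lower. The 6 were Cyp2a5, Cyp2c23, Cyp4f14, Cyp4f15, Cyp4f18 and Cyp4v3, so 4 of the 10 CYP4 genes were higher in MREmx1-cre. The 3 were Cyp17a1, Cyp2s1 (-0.46 ± 0.0915, adjusted p = 0.00835) and Cyp3a11 (-0.84 ± 0.138, adjusted p = 0.00251). The call of Cyp4v3 (0.32 ± 0.0896, adjusted p = 0.0414) was lost on leaving out any of 9 of the 15 arrays, all but array 3 of dflox, array 2 of GREmx1-cre, array 3 of MREmx1-cre and the 3 GRMREmx1-cre arrays (0.26 to 0.38, adjusted p up to 0.106) and did not pass with median scaling or local background subtracted or without a filter on dim probes. That call of Cyp4v3 also did not pass with the replicate number as a block in the fit. For Cyp4f15 (1.14 ± 0.147, adjusted p = 5.88e-04), Cyp4f18, Cyp17a1, Cyp2s1 and Cyp3a11 the call held without any 1 array.

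The interaction of both losses asked whether the effect of losing MR differs with and without GR. By limma's adjusted p, 0 of the 49 members passed, and 9 (18.4%) had an unadjusted p below 0.05, where 17.0% of all genes did. Of all genes 1.29% were called, 0.512% higher and 0.778% lower. The member with the smallest p was Cyp27b1 at -0.77 ± 0.178, adjusted p = 0.0566, and it passed on quantile-normalized values (adjusted p = 0.0495), among genes above background on all 15 arrays (0.0419) and without dflox replicate 4 (0.0481). Next came Cyp2j13 (0.41 ± 0.106, adjusted p = 0.0807) and Cyp2d12 (-0.54 ± 0.174, adjusted p = 0.143).

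Of 67 tested genes of the P450 system that are no members, 1 rose in GREmx1-cre, 2 rose in MREmx1-cre, and 8 rose and 1 fell in GRMREmx1-cre against dflox. These were 1.49%, 2.99% and 13.4% of them, where 3.15%, 6.8% and 16.3% of all genes were called. Of the 11 tested redox partners, 1 rose in MREmx1-cre and none was called in the other groups against dflox. Por, the reductase that feeds electrons to microsomal P450s, differed from dflox by -0.052, 0.016 and 0.060 in GREmx1-cre, MREmx1-cre and GRMREmx1-cre, and none of these passed. The gene that rose was the cytochrome b5 reductase Cyb5r1 (0.22 ± 0.0481, adjusted p = 0.0159), which held without any 1 array (0.21 to 0.24) but did not pass with median scaling. Of 14 genes of heme synthesis and breakdown, 1 rose in GRMREmx1-cre against dflox, the biliverdin reductase Blvrb (0.30 ± 0.0751, adjusted p = 0.0165), a call that was lost on leaving out array 2 or array 3 of GRMREmx1-cre (0.25 to 0.36, adjusted p up to 0.0864) and did not pass with median scaling. Alas1, the first enzyme of heme synthesis, differed between knockouts, with MREmx1-cre and GRMREmx1-cre below GREmx1-cre (-0.33 ± 0.0606, adjusted p = 0.00469 and -0.32 ± 0.0655, adjusted p = 0.00616). Both calls of Alas1 held without any 1 array. Of the 67 genes, 9 were called in GRMREmx1-cre against GREmx1-cre, 3 against MREmx1-cre and 4 between the single knockouts. These were 13.4%, 4.48% and 5.97%, where 16.1%, 2.98% and 9.33% of all genes were called. Of the calls between knockouts only those of Alas1 are given here.

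Of the 4 epoxide hydrolases, which open the epoxides that CYP2C and CYP2J enzymes make, 1 rose in GREmx1-cre, 1 in MREmx1-cre and 2 in GRMREmx1-cre. Over all genes 2.26%, 4.21% and 11.4% were called higher in these groups. Ephx2, the soluble epoxide hydrolase, was higher in both groups that lack GR. Ephx2 stood at 2.37, 2.50, 2.46 and 2.40 in dflox, at 2.76, 2.77, 2.85 and 2.77 in GREmx1-cre, at 2.54, 2.39, 2.54 and 2.60 in MREmx1-cre and at 2.94, 3.12 and 3.06 in GRMREmx1-cre. GREmx1-cre and GRMREmx1-cre did not overlap with dflox or MREmx1-cre. Ephx2 rose 1.28-fold in GREmx1-cre (0.36 ± 0.0555 SE, limma's adjusted p = 0.00614, n = 4 and 4) and 1.52-fold in GRMREmx1-cre (0.61 ± 0.0599, adjusted p = 7.97e-05), and both calls held without any 1 array. Ephx3 stood at -4.96, -5.33, -5.35 and -5.19 in dflox, at -5.14, -5.15, -5.09 and -5.15 in GREmx1-cre, at -4.74, -4.90, -4.63 and -4.90 in MREmx1-cre and at -4.66, -4.76 and -4.54 in GRMREmx1-cre. Ephx3, a lipid epoxide hydrolase known from skin, was higher on every MREmx1-cre and GRMREmx1-cre array than on every dflox array. The rise was 1.33-fold in MREmx1-cre (0.41 ± 0.0886, adjusted p = 0.0153) and 1.46-fold in GRMREmx1-cre (0.55 ± 0.0957, adjusted p = 0.00212). Those calls held without any 1 array, and the one in MREmx1-cre did not pass with quantile normalization, local background subtracted or a trended robust fit.

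Of 14 tested receptors that regulate P450 genes, Ahr, the aryl hydrocarbon receptor, rose in GRMREmx1-cre (0.35 ± 0.0969, adjusted p = 0.0271) and Ppara, which encodes PPAR-alpha, fell (-0.28 ± 0.0692, adjusted p = 0.0166). The call of Ahr was lost on leaving out array 1 or array 4 of dflox or array 1 or array 2 of GRMREmx1-cre (0.30 to 0.41, adjusted p up to 0.117) and did not pass with median scaling, and that of Ppara was lost on leaving out array 2 or array 3 of GRMREmx1-cre (-0.31 to -0.23, adjusted p up to 0.0813). The change of Ppara turned to 0.47 with normexp background correction. Of 22 genes of cholesterol synthesis other than Cyp51, 3 rose in GRMREmx1-cre against dflox. In that comparison 11.4% of all genes were called higher and 4.84% lower. The 3 were Tm7sf2 (0.49 ± 0.0668, limma's adjusted p = 4.84e-04), Acat2 (0.24 ± 0.0677, adjusted p = 0.0281) and Idi1 (0.24 ± 0.0733, adjusted p = 0.0392). The call of Tm7sf2 held without any 1 array but not with normexp. That of Acat2 was lost on leaving out array 1 or array 4 of dflox or array 2 or array 3 of GRMREmx1-cre (0.20 to 0.29, adjusted p up to 0.131) and did not pass with median scaling or local background subtracted, and that of Idi1 was lost on leaving out array 1, array 2 or array 4 of dflox, array 2 of GREmx1-cre or array 2 or array 3 of GRMREmx1-cre (0.20 to 0.30, adjusted p up to 0.160) and did not pass with median scaling or the mean of a gene's probes or without a filter on dim probes. The change of Idi1 turned to -0.030 with normexp background correction. The median of these 22 genes was 0.044. Thromboxane synthase, a P450 with the symbol Tbxas1 that microglia and macrophages express, rose in GRMREmx1-cre (0.50 ± 0.124, adjusted p = 0.0160), a call that was lost on leaving out array 2 or array 3 of GRMREmx1-cre (0.40 to 0.60, adjusted p up to 0.0806) and did not pass with local background subtracted.

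Markers of other cell types moved with the groups too. Over all genes 4.21% were called higher and 2.6% lower in MREmx1-cre against dflox, and 11.4% and 4.84% in GRMREmx1-cre. In GREmx1-cre the shares were 2.26% and 0.888%. Of 10 microglia markers, 4 rose in MREmx1-cre and 7 in GRMREmx1-cre against dflox, and their mean level was -0.24 to -0.11 on the dflox arrays, 0.074 to 0.16 on the MREmx1-cre arrays and 0.16 to 0.32 on the GRMREmx1-cre arrays. Of the 10 neuron markers, 4 fell in MREmx1-cre and 6 in GRMREmx1-cre, and 1 rose in each. Of 9 thalamus and habenula markers, 3 rose and 1 fell in MREmx1-cre and 4 rose and 1 fell in GRMREmx1-cre. Of 10 meningeal and perivascular fibroblast markers 2 fell in each knockout group, and 1 rose in GRMREmx1-cre. Of 10 astrocyte markers, 1 rose and 1 fell in GREmx1-cre, 1 rose in MREmx1-cre, and 3 rose and 2 fell in GRMREmx1-cre. In GREmx1-cre 1 microglia marker rose and 1 fell, and no marker of neurons or of the thalamus was called. Markers of oligodendrocytes, endothelium, pericytes and red blood cells were called in no knockout group against dflox. The part of these shifts in the P450 changes was not tested. Among 12 choroid plexus markers none was called, but their mean level was -3.90 on MREmx1-cre replicate 2 and between -0.48 and 1.19 on the other arrays. On GREmx1-cre replicate 1 the 9 thalamus and habenula markers averaged 0.61, against -0.24 to 0.15 elsewhere. With both of these arrays left out, 43 of the 58 calls of members over the 6 comparisons remained. The calls against dflox that were lost were those of Cyp27b1 and Cyp4v3 in GREmx1-cre, Cyp2b19 and Cyp3a11 in MREmx1-cre and Cyp2a22 in GRMREmx1-cre.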

How the data were processed

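Hippocampal RNA was read on 15 Agilent 1-colour arrays, as deposited by the authors in scanner files and a value table. Per the file headers the intensities were made with Agilent Feature Extraction 12.0, which subtracts background within each array. The same headers give each spot's flags (other values, 0 or 1) for outliers, saturation and being well above background. Each array's 45018 deposited intensities equalled those of the value table, and 0 spots were saturated.

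Here, spots flagged as outliers (53 to 188 an array) were left out, processed signals were taken to log2 minus each array's 75th percentile over 43379 spots that are not controls, and spots of a probe were averaged. Of 41174 probes, 28223 received 1 symbol from RefSeq through their accession and 12951 none. Kept were 30882 probes that exceeded background clearly on 3 or more arrays, with the probe of highest mean for each gene (22872 genes, 15945 with a symbol). Limma 3.58.1 in R 4.3.3 fitted 4 group means over all arrays, with empirical Bayes variances and Benjamini-Hochberg adjustment over all genes, for 6 comparisons and the interaction. The precision is limited by the number of arrays, and log2 signals of dim probes carry more error. The fit was tested on simulated data.

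Values are given in full for members that passed in any comparison and for the sterol, steroid hormone and vitamin D lists, and for other members by range and count. In other lists of the pathway, up to 4 genes with the smallest adjusted p in each comparison with dflox were named, and Por always. Between knockouts only Alas1 was named. Members and lists were chosen with earlier results of these data known. The scanner files read here hold no mean spot signal, so the normexp alternative used the median signal. Alternatives were quantile and median scaling, normexp, local background subtracted with an offset of 50 (chosen after seeing the data), other filters and probe rules, the deposited value table, a trended robust fit, a replicate block and arrays left out. Promoters came from RefSeq's GRCm38.p6. Python 3.11.15 with pandas 2.3.3, Biopython 1.88 and matplotlib 3.10.9 was used for sequences and plots.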

Additional observations from a re-analysis of the deposited data

Results flagged for a closer look

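In 7 of 147 groups of 4 arrays (4.76%) an array stood apart from the others by Dixon's test at the 95% level, where chance gives about 1 in 20. Cyp4f15, the fatty acid hydroxylase that fell with loss of GR, was at -1.12 on GREmx1-cre replicate 1 and between -0.88 and -0.85 on that group's remaining arrays. Cyp2d26 was at -4.36 on dflox replicate 4, against -4.27 to -4.26 elsewhere in dflox, and at -3.45 on MREmx1-cre replicate 4, against -4.10 to -4.01. Cyp20a1 was at -0.94 on MREmx1-cre replicate 1, where its group otherwise held -1.47 to -1.45. Cyp2b13 was at -7.63 on dflox replicate 1, below -6.83 to -6.72. Cyp2j11 was at -5.50 on MREmx1-cre replicate 2, below -4.87 to -4.85, and Cyp2j13 at -2.46 on GREmx1-cre replicate 1, below -2.20 to -2.19. The last 2 arrays named are those on which choroid plexus or thalamus markers stood apart.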

How the results depend on the processing

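The 58 calls of members over the 6 comparisons all held on the deposited value table with outlier spots kept, and 43 of 43 held among probes above background on all 15 arrays. The first setting differs from the main fit only in the flagged spots. The second refits the same signals on fewer probes, so both could change little. Calls were lost in 9 cases with quantile normalization, 10 with median scaling, 12 with local background subtracted, 10 without a filter on dim probes, 2 with the mean of a gene's probes, 4 with a trended robust fit, 15 without MREmx1-cre replicate 2 and GREmx1-cre replicate 1, and 28 with normexp. Normexp fitted background means of -804 to -30.2 on the GRMREmx1-cre arrays and 1.06 to 3.21 on the others. It called 0 members in GREmx1-cre against dflox, 0 in MREmx1-cre against dflox and 0 between these groups, and 37, 38 and 38 in GRMREmx1-cre against dflox, GREmx1-cre and MREmx1-cre. Under it these changes turned sign; the cause was not tested. Against dflox in GRMREmx1-cre the values became 0.39 for Cyp2d22, 0.16 for Cyp3a11, 0.29 for Cyp4f18, 0.47 for Ppara, -0.030 for Idi1, 0.97 for Nr3c2, 0.82 for Cyp39a1, 1.47 for Cyp2r1 and 1.26 for Cyp27b1. Against GREmx1-cre they became 0.92 for Cyp27b1, 0.54 for Cyp2d12, 0.36 for Cyp2d22, 0.64 for Nr3c2, 1.16 for Cyp27a1 and 1.36 for Cyp2r1. Against MREmx1-cre they became 0.34 for Cyp2d22, 0.21 for Cyp4f18, -0.032 for Tm7sf2, 0.80 for Cyp39a1, 1.47 for Cyp2r1 and 1.10 for Cyp27b1, and the interaction of Nr3c2 became 0.68. In GREmx1-cre against dflox the count of 5 members moved to 3 with quantile normalization, 3 with median scaling, 3 without the 2 arrays and 9 with local background subtracted. In GRMREmx1-cre against MREmx1-cre the 5 became 3 with median scaling, 2 without a filter on dim probes and 1 without the 2 arrays, and MREmx1-cre against GREmx1-cre fell from 9 to 5 without them. The interaction gave 1 call with quantile normalization and 1 among probes above background on all arrays. Over all genes, median scaling moved the splits into higher and lower from 962 and 594 to 524 and 505 (MREmx1-cre against dflox), from 538 and 143 to 285 and 169 (GRMREmx1-cre against MREmx1-cre) and from 1124 and 1010 to 1079 and 621 (MREmx1-cre against GREmx1-cre), and quantile normalization gave 245 and 180 for GREmx1-cre against dflox. With 1 array left out in turn the member counts ranged from 2 to 6 (GREmx1-cre against dflox, lowest without dflox replicate 3 or GREmx1-cre replicate 3), from 2 to 5 (MREmx1-cre, lowest without dflox replicate 2 or MREmx1-cre replicate 1 or 2) and from 15 to 22 (GRMREmx1-cre, lowest without its replicate 3). They ranged from 9 to 15 (GRMREmx1-cre against GREmx1-cre, lowest without GRMREmx1-cre replicate 2 or 3), 1 to 6 (against MREmx1-cre, lowest without MREmx1-cre replicate 2 or the GRMREmx1-cre arrays 1 or 2), 6 to 9 (between the single knockouts) and 0 to 1 (interaction). The replicate numbers were not taken as pairs. Deviations of same-numbered arrays of different groups correlated at -0.029 to 0.20 (21 pairs, median 0.073). Those of other-numbered arrays of different groups correlated at -0.15 to 0.11 (63 pairs, median -0.023). Among arrays of other groups, 14 of 15 arrays correlated best with one of their own number. The numbers thus share structure that the main fit leaves out, and the labels do not give its source. With the replicate number as a block the counts were 6, 4, 23, 16, 3 and 8 in the order above with the single knockouts last, 0 for the interaction, and 53 of 58 calls were kept. Those not kept were Cyp2a5 against dflox in GRMREmx1-cre, Cyp2d22, Cyp4f18 and Cyp4f39 in GRMREmx1-cre against MREmx1-cre, and Cyp4v3 between the single knockouts.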
